A study of Rattus norvegicus with 8 samples.

Results

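The 43 genes described here encode the machinery that copies DNA in S phase, and they were chosen by name as a functional group. That choice was made with earlier results of these data known. On the Illumina RatRef-12 arrays used, 38 of the 43 genes had a probe with their symbol, of 13793 probes with a symbol in all. No probe was found for Cdc45, Rrm1, Tk1, Dut and Cdk2. Mcm5 and Pola1 had 2 probes each, and the brighter probe was used for every gene.

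The arrays measured adipose-derived mesenchymal stem cells (ASCs) cultured from the fat of 8-week-old rats of the strains Lewis/Jms (LEW) and Piebald Virol Glaxo (PVG). The cells of each of 3 rats per strain were divided among PBS control and lipopolysaccharide (LPS, the bacterial endotoxin sensed through TLR4) at 1 µg/ml, each for 24 h or 48 h. No rat carried a transgene or an engineered allele, per the labels. RNA of the 3 rats was pooled for each of the 8 arrays, so each of the 4 groups (LEW control, LEW LPS, PVG control, PVG LPS) has 1 array at 24 h and 1 at 48 h. The p-values below measure the spread among pooled arrays, not among rats.

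Before a cell divides, the origin recognition complex (ORC) with CDC6 and CDT1 loads the MCM helicase onto DNA, and geminin blocks CDT1 so that loading happens only once per cycle. At the start of S phase the helicase is activated by CDC45 and the GINS complex. Polymerase alpha with primase lays down primers, polymerases delta and epsilon extend them on the PCNA clamp that replication factor C loads, and FEN1 and LIG1 join the lagging strand. Transcription of most of these genes is held low by RB proteins in resting cells and is driven by E2F factors as cells enter S phase, so their RNA is widely read as a mark of proliferation. In bulk RNA, fewer cells in S phase and less RNA per cell cannot be told apart.

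The values given are scaled signals on a linear scale, after each array was brought to the same 75th percentile, which can be compared between arrays for 1 probe but not between probes. A probe counted as detected on an array at a detection p under 0.05 against the negative controls of that array. Of the 38 genes, 23 were detected on all 8 arrays, 14 on some, and 1, Rpa1, on none. At 24 h between 33 and 37 of the 38 were detected on an array, and at 48 h between 23 and 31. The fit covered the 10414 probes detected on at least 2 arrays, which include 37 of the genes. Of the mesenchymal and fibroblast markers, all 10 that the array carries were detected throughout. Of 9 leukocyte markers 7 (Ptprc, the pan-leukocyte CD45, among them) were detected on no array, and the others, Itgam and Aif1, on 3 each. Of 6 endothelial markers 4 (Cdh5 and Vwf among them) were detected on none, while Tie1 was detected on all 8 arrays and Tek on 3. Of 7 adipocyte markers 2 (Adipoq and Lep) were detected on none. Pnpla2 was detected on all 8 arrays, Cfd on 7, Cidec on 4, and Fabp4 and Lipe on 1 each. The summed signal of the mesenchymal markers ran from 77181 to 86150 at 24 h and from 78462 to 98008 at 48 h, and that of the leukocyte markers from 609.6 to 665 and from 629.7 to 683.

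The strongest pattern among the replication genes was a fall from 24 h to 48 h. Within the 4 groups of strain and treatment, 25 of the 37 genes tested fell and 0 rose (limma, Benjamini-Hochberg adjusted p under 0.05 over all 10414 probes), where 2.56% of all probes tested fell. The median log2 difference, 48 h minus 24 h, was -0.57 for the 37 genes and 0.03 for all probes. With background correction (neqc) these medians were -0.83 and 0.02, so the sizes given here depend on the background left in the signals. Without regard to any filter, 33 of the 38 genes with a probe were lower at 48 h in all 4 matched pairs of arrays, and 0 were higher in all 4. Of all probes tested, 11.3% were lower in all 4 pairs. For 26 of the 38 genes every 24 h array lay above every 48 h array, and 3.17% of all probes tested did so.

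Because 5 of the tested genes (Orc1, Cdt1, Gins1, Ccne1 and Uhrf1) were detected at 24 h only, they entered the fit through the time at which they were higher. Cdc6, Ccne2, Gins2 and Chaf1b were detected on only 1 array at 48 h, too few to pass the filter there. These genes too entered the fit through 24 h. Among the 23 genes detected on all 8 arrays, 19 fell, with a median log2 difference of -0.65. In the fit of only the probes detected on all 8 arrays, the median of all probes was 0.01. There 284 probes were called for time in either direction, and 19 of the 23 genes fell. The number of detected probes over the whole array was between 9101 and 9509 at 24 h and between 8947 and 9228 at 48 h, and the 75th percentile before scaling was between 128 and 153 and between 123 and 131. These ranges overlap between the times, and their part in the time difference was not tested. Of the mesenchymal markers 1 of 10, the growth factor receptor Pdgfra, rose from 24 h to 48 h, by a log2 difference of 0.71 (limma adjusted p = 0.0074), and its part was likewise not tested.

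**Figure D1:**
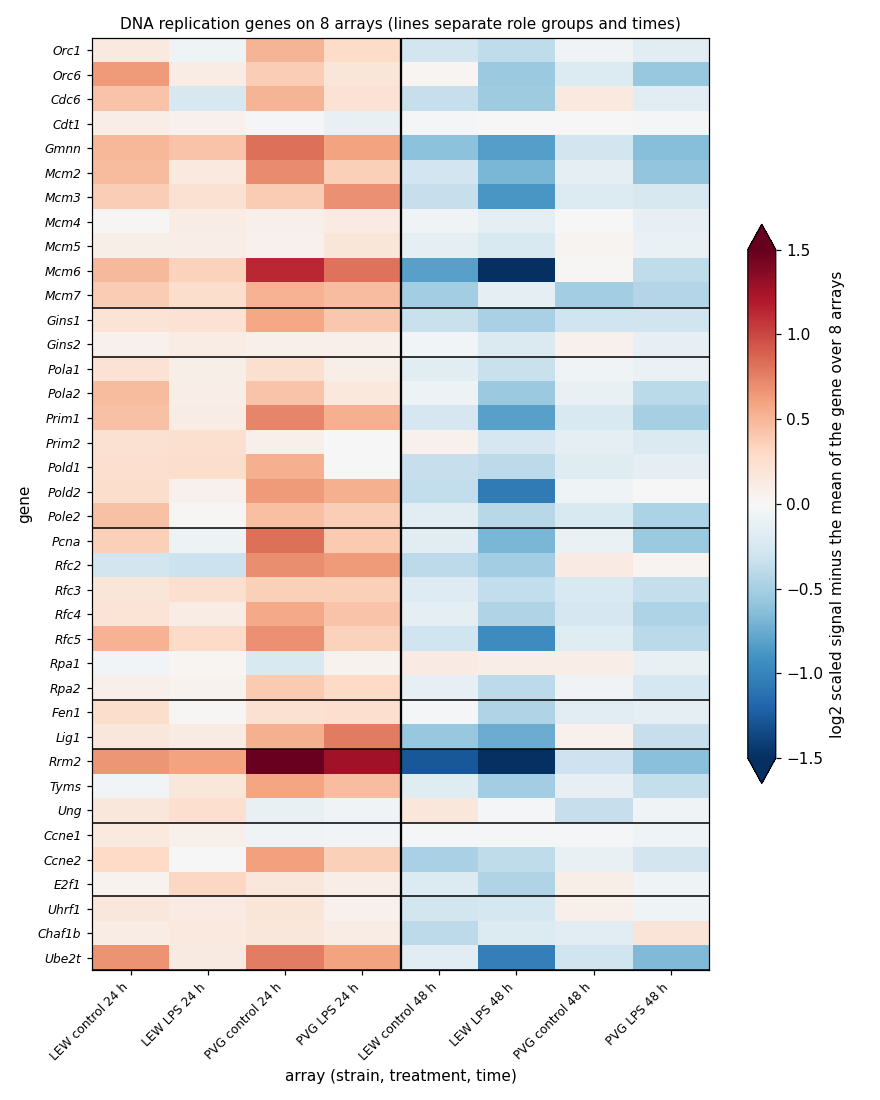
Scaled signals of the 38 genes (rows, by role) on the 8 arrays (columns), as log2 minus the mean of each gene, in colour. The 4 arrays at 24 h are mostly red and the 4 at 48 h mostly blue, and 33 of the 38 genes are lower at 48 h in all 4 groups.

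**Figure D2:**
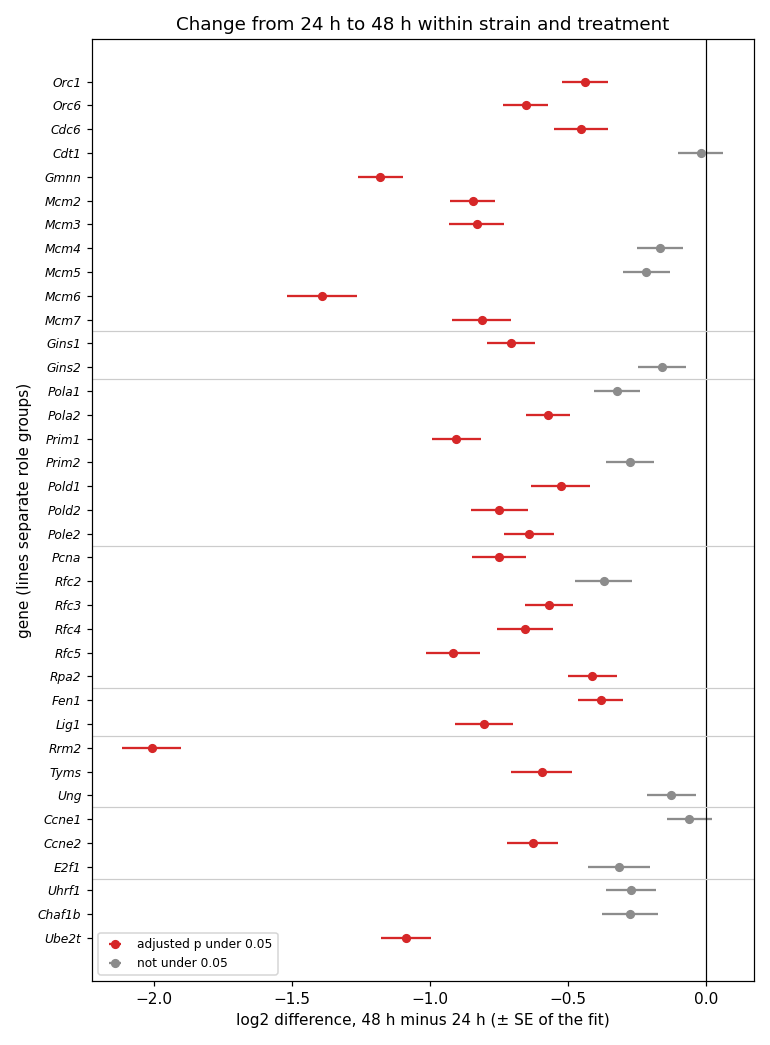
Log2 difference, 48 h minus 24 h within strain and treatment, for the 37 genes tested (points, bars the SE of the limma fit), in red where the adjusted p was under 0.05. All 37 differences are below 0, from -2.01 for Rrm2 to -0.02 for Cdt1, and 25 are red.

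Promoter windows were read for the genes as they fell together and E2F sites are the best known feature of such promoters. Windows of 300 bases, from 250 before to 50 after the annotated start, came from RefSeq on build GRCr8, and 32 of the 38 genes matched by symbol, with 34 windows. The E2F motif was searched on both strands in 4 spellings. The commonest textbook spelling is TTCCCGC. The other spellings searched here were TTCGCGC in the first place, followed by TTGCCGC as a further form, and finally the form TTGGCGC. It was found in a window of 23 of the 32 genes (71.9%) and in 9.52% of all 33469 windows. Here and below a gene counted if any of its windows matched, while the share of all windows counts each window. Of the 46 matches in the 34 windows of the genes, 3 overlapped a CCAAT match and 1 an Sp1 match, and matches on opposite strands could overlap each other.

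The CCAAT box (CCAAT) was found in windows of 19 of the 32 genes (59.4%) and in 37.5% of all windows, and the Sp1 box (GGGCGG) in 21 (65.6%) and in 33.1%. The cell cycle homology element of late cell cycle promoters (TTTGAA) was found in 3 (9.38%) and in 18.3% of all windows. Of the 31 tested genes with a window, those with an E2F match numbered 23, of which 16 fell, with a median log2 difference of -0.59. Those without numbered 8, of which 5 fell, with a median of -0.61. The medians lay close together.

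The windows printed are those of Mcm6 and Gmnn, both of which fell, of Rfc5, which fell with no match, and of Mcm5, which has matches and did not pass the test. Capitals mark E2F matches, and each window runs 5′ to 3′ on the strand of its gene.
Mcm6: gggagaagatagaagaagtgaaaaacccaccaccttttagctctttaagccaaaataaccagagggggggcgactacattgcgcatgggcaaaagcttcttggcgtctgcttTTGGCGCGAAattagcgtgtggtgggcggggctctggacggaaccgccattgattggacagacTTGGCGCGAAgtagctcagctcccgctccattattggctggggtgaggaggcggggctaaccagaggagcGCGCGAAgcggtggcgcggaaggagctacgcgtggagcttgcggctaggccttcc
Gmnn: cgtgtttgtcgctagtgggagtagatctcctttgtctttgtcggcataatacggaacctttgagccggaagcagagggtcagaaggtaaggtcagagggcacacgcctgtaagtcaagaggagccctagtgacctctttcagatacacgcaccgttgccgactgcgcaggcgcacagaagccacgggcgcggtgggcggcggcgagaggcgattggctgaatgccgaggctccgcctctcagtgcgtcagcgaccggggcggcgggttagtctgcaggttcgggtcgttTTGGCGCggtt
Rfc5: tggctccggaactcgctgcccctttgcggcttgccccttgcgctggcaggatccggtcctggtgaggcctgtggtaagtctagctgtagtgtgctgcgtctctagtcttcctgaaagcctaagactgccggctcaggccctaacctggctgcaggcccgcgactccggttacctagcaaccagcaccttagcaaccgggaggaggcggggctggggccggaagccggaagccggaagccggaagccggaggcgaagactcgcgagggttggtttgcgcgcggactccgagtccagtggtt
Mcm5: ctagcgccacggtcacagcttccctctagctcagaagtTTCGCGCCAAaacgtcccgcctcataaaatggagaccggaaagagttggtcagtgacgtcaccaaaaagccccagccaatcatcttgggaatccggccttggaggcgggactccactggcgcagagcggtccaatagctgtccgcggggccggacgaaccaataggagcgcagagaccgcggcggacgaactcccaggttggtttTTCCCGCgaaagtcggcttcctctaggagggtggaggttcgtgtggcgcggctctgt
The Mcm6 window (chr13:42404303-42404602, minus strand) held 5 matches in 3 stretches, and the Mcm5 window (chr19:13488563-13488862, plus strand) held 3 in 2 stretches. The Gmnn window (chr17:40729584-40729883, plus strand) held 1, in the bases after the start, and the Rfc5 window (chr12:44868072-44868371, plus strand) held 0.

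Ribonucleotide reductase makes the deoxynucleotides for DNA synthesis, and its small subunit Rrm2 had the lowest log2 difference of all 7453 genes tested. At 24 h the Rrm2 signal was 895 in LEW control, 861 in LEW LPS, 1581 in PVG control and 1355 in PVG LPS ASCs. At 48 h it was 234, 162, 454 and 366 in the same order. Every 24 h array was above every 48 h array, and within each time both PVG arrays were above both LEW arrays. The fold was 4.02 (log2 difference -2.01 ± 0.11 SE, 4 arrays per time, limma adjusted p = 1.03e-05). Thymidylate synthase (Tyms), which makes dTMP, had signals of 128, 149, 198 and 182 at 24 h and of 116, 92.0, 121 and 103 at 48 h in the same order of groups. The lowest 24 h array, LEW control, was only slightly above the highest 48 h array. Tyms fell by 0.59 ± 0.11 on the log2 scale (limma adjusted p = 0.0137), a call lost without any 1 of the 4 PVG arrays, with adjusted p up to 0.113. Ung, which removes uracil from DNA, did not pass, at -0.13 ± 0.09 (limma adjusted p = 0.522).

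**Figure D3:**
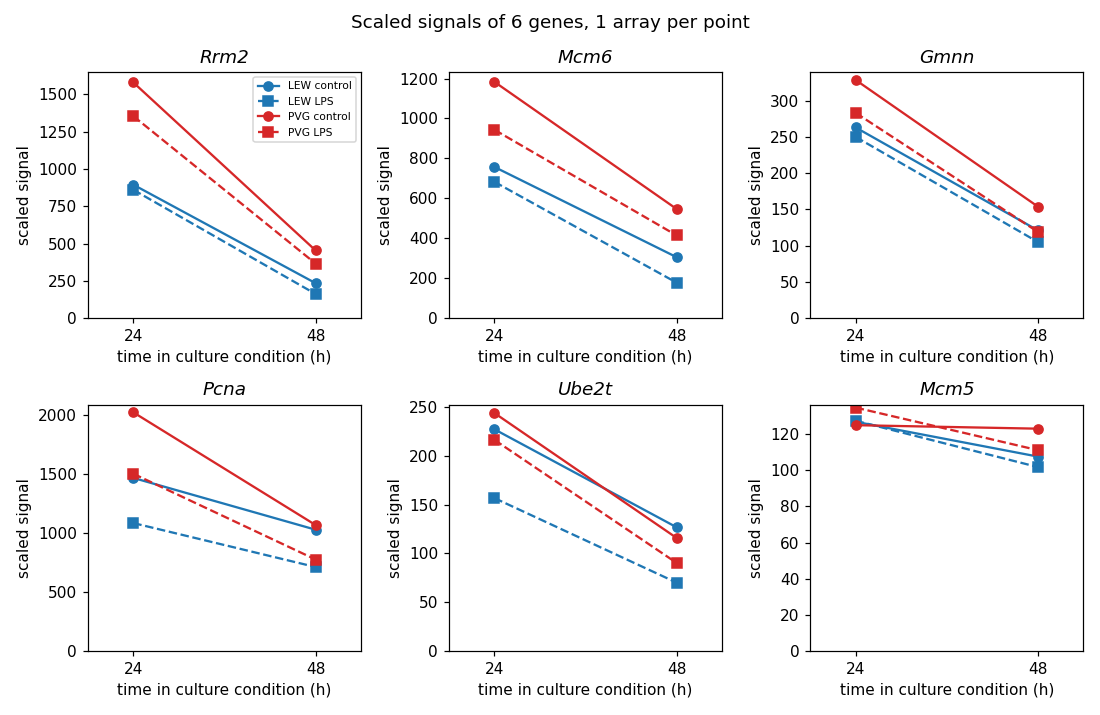
Scaled signal (linear axis from 0) at 24 h and 48 h for 6 genes, 1 array per point, blue for LEW and red for PVG, solid for control and dashed for LPS. All lines fall for Rrm2, Mcm6, Gmnn, Pcna and Ube2t, while those of Mcm5 fall less, from a geometric mean of 128 to 111.

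Among the genes of origin licensing, 8 of 11 fell, with a median log2 difference of -0.65. Geminin (Gmnn), the CDT1 inhibitor, had signals of 263 in LEW control, 250 in LEW LPS, 328 in PVG control and 283 in PVG LPS ASCs at 24 h. At 48 h these were 121, 105, 154 and 119. Each 48 h array was below all 24 h arrays, and the spread among the 4 groups was small beside the change. The fold was 2.26 (log2 difference -1.18 ± 0.08, limma adjusted p = 3.08e-05).

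The helicase subunit Mcm6 had signals of 757, 682, 1183 and 943 at 24 h and of 305, 177, 546 and 414 at 48 h, in the same order of groups. The lowest array was LEW LPS at 48 h and the highest PVG control at 24 h, with no overlap between the times. The log2 difference was -1.39 ± 0.13 (limma adjusted p = 0.000119), and it was -1.94 between the LEW LPS arrays and between -1.31 and -1.12 in the other groups. Mcm2, another subunit of the ring, had signals of 344, 275, 405 and 318 at 24 h and of 203, 155, 226 and 165 at 48 h. In both strains and at both times the LPS array was below its control. Mcm2 fell by 0.84 ± 0.08 on the log2 scale (limma adjusted p = 0.000171). Mcm3 had signals of 181, 164, 183 and 227 at 24 h and of 111, 76.8, 122 and 119 at 48 h, and was not detected on 1 array, LEW LPS at 48 h. Its arrays did not overlap between the times, and the log2 difference was -0.83 ± 0.10 (limma adjusted p = 0.000678).

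Mcm7 and the ORC subunit Orc6 fell by 0.81 and 0.65 on the log2 scale (limma adjusted p = 0.00142 and 0.000894). Cdc6, which recruits the helicase, was detected on 4 arrays and fell by 0.45 (limma adjusted p = 0.0268). Orc1, a subunit of ORC, was detected on all 4 arrays at 24 h and on none at 48 h. It was at least 1.22-fold higher at 24 h (geometric means 104 and 77.0, limma adjusted p = 0.0144). Cdc6 and Orc1 passed the filter through the 24 h arrays, where they were higher, so these p-values add no support. The calls of Cdc6 and Orc1 were each lost without either array of the LEW control, PVG control or PVG LPS group. Either array of a group gives the same time fit when left out. With 1 array left out, the log2 differences ran from -0.51 to -0.34 for Cdc6 and from -0.47 to -0.39 for Orc1. Of the MCM ring, 4 of the 6 subunits fell. Mcm4 and Mcm5, both detected on all 8 arrays, had log2 differences of -0.17 ± 0.08 and -0.22 ± 0.09 (limma adjusted p = 0.343 and 0.223), with signals between 96.5 and 135 on every array. Background was not subtracted, and the undetected Rpa1 read between 55.2 and 70.2, so the folds of such dim genes are narrowed. Cdt1, the loading factor, was detected on 2 arrays only, and its difference was -0.02 ± 0.08 (limma adjusted p = 0.934).

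Of the GINS genes, Gins1 was detected on all 4 arrays at 24 h, with signals of 115, 116, 150 and 132 in LEW control, LEW LPS, PVG control and PVG LPS ASCs, and on none at 48 h, with 78.8, 71.3, 81.3 and 81.4. The times did not overlap. Gins1 was at least 1.49-fold higher at 24 h (geometric means 127 and 78.1, limma adjusted p = 0.000791). It passed the filter through the 24 h arrays alone, so it had to differ in that direction and the p-value adds no support. Gins2, on 5 arrays, had a log2 difference of -0.16 ± 0.09 (limma adjusted p = 0.387).

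Among the polymerase and primase genes, 5 of 7 fell, with a median log2 difference of -0.57. The catalytic primase subunit Prim1 had signals of 758, 605, 928 and 812 at 24 h in the same order of groups, and of 469, 318, 478 and 395 at 48 h. All 24 h arrays exceeded all 48 h arrays, and both times the LPS array was below its control. Prim1 fell by 0.90 ± 0.09 on the log2 scale (limma adjusted p = 0.000181).

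Pold2, an accessory subunit of polymerase delta, had signals of 325, 284, 421 and 394 at 24 h and of 211, 130, 259 and 271 at 48 h. The LEW LPS array at 48 h was the lowest, and the times did not overlap. The log2 difference was -0.75 ± 0.10 (limma adjusted p = 0.00208). Pola2, the regulatory subunit of polymerase alpha, had signals of 243, 188, 235 and 196 at 24 h and of 167, 119, 162 and 133 at 48 h. LEW and PVG arrays of the same treatment and time lay close together. The log2 difference was -0.57 ± 0.08 (limma adjusted p = 0.00213). Pole2, a subunit of polymerase epsilon, had signals of 172, 128, 173 and 164 at 24 h and of 113, 94.7, 108 and 91.3 at 48 h. Its times did not overlap, and it fell by 0.64 ± 0.09 (limma adjusted p = 0.00219). Pold1, the catalytic subunit of polymerase delta, fell by 0.53, while Pola1 and Prim2 did not pass, at -0.32 and -0.27 (limma adjusted p = 0.0193, 0.0609 and 0.127). The Pold1 call was lost without any 1 of the 4 control arrays, with adjusted p up to 0.128.

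Of the clamp, the clamp loader and the single-strand binding genes, 5 of the 6 tested fell. The clamp itself, Pcna, had signals of 1466, 1083, 2021 and 1501 at 24 h and of 1027, 711, 1067 and 774 at 48 h, in the same order of groups. The lowest 24 h array, LEW LPS, lay just above the highest 48 h array, PVG control. The fold was 1.68 (log2 difference -0.75 ± 0.10, limma adjusted p = 0.00131).

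The loader subunit Rfc5 had signals of 280, 237, 312 and 247 at 24 h and of 159, 101, 171 and 147 at 48 h. Every 24 h value was above every 48 h value. Rfc5 fell by 0.92 ± 0.10 on the log2 scale (limma adjusted p = 0.000305). Rfc3 had signals of 398, 412, 447 and 448 at 24 h and of 306, 271, 299 and 274 at 48 h. The arrays of 1 time were close to each other in all groups, and Rfc3 fell by 0.57 ± 0.09 (limma adjusted p = 0.00391). Rfc4 had signals of 902, 843, 1156 and 1054 at 24 h and of 710, 570, 655 and 569 at 48 h. PVG exceeded LEW at 24 h but not at 48 h. Rfc4 fell by 0.65 ± 0.10 (limma adjusted p = 0.00444). Rpa2, a subunit of the single-strand binding protein, fell by 0.41 ± 0.09 (limma adjusted p = 0.0268). The Rfc4 call was lost without either PVG control array, with adjusted p up to 0.0581, and that of Rpa2 without any 1 of the 4 PVG arrays, with adjusted p up to 0.152.

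Both genes of Okazaki fragment joining fell. DNA ligase 1 (Lig1) had signals of 282, 273, 364 and 432 at 24 h and of 169, 150, 262 and 197 at 48 h. PVG was above LEW in each matched pair, and the times did not overlap. Lig1 fell by 0.80 ± 0.11 on the log2 scale (limma adjusted p = 0.00142). The flap endonuclease Fen1 had signals of 203, 171, 198 and 202 at 24 h and of 167, 123, 152 and 153 at 48 h. The lowest 24 h array was close to the highest 48 h array, and Fen1 fell by 0.38 ± 0.08 (limma adjusted p = 0.026), a call that was lost when any 1 array was left out, with adjusted p up to 0.119.

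Of the G1/S regulators, cyclin E2 (Ccne2), which activates CDK2, had signals of 123, 99.8, 153 and 128 at 24 h and of 71.5, 77.2, 92.8 and 83.1 at 48 h. It was detected on all 4 arrays at 24 h and on 1 at 48 h. Ccne2 fell by 0.63 ± 0.09 on the log2 scale (limma adjusted p = 0.00305). It passed the filter through the 24 h arrays, where it was higher, so this p-value adds no support. Cyclin E1 (Ccne1), detected on 3 arrays, and E2f1, on 7, had differences of -0.06 ± 0.08 and -0.31 ± 0.11 (limma adjusted p = 0.767 and 0.17). Ube2t, the ubiquitin-conjugating enzyme of the Fanconi anaemia pathway of DNA crosslink repair, had signals of 227, 157, 244 and 216 at 24 h and of 127, 69.9, 116 and 90.1 at 48 h. LEW LPS was the lowest array at either time, and Ube2t was not detected on that array at 48 h. Ube2t fell by 1.09 ± 0.09 on the log2 scale (limma adjusted p = 8.61e-05). Uhrf1, which couples DNA methylation to replication, and the chromatin assembly subunit Chaf1b were detected on 2 and 5 arrays and had differences of -0.27 ± 0.09 and -0.27 ± 0.10 (limma adjusted p = 0.142 and 0.185).

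Taken apart by strain and by treatment, the median log2 difference of the 37 genes was -0.52 in LEW, -0.62 in PVG, -0.57 in control and -0.60 in LPS-treated ASCs. The counts of calls in these smaller comparisons rested on single arrays. In LEW ASCs 15 genes fell (1.43% of all probes), but 2 without the LEW LPS array at 24 h, 5 without the LEW control array at 24 h, 9 without the LEW LPS array at 48 h and 8 without either PVG array at 48 h. In PVG ASCs 18 fell (1.05%), but 0 to 2 without any 1 of the 4 PVG arrays. In control ASCs 10 fell (0.768%), but 0 without either control array at 24 h, 1 without either control array at 48 h and 16 without either LPS array at 48 h. With LPS 16 fell (1.14%), but 4 and 6 without the PVG and the LEW LPS array at 24 h, and 10 without the LEW LPS array at 48 h. The interaction of strain and time was called for 0 genes by limma, and for 0% of all probes, with 4 genes at an unadjusted p under 0.05. These were Mcm6, with log2 differences of -1.63 in LEW and -1.15 in PVG, Pcna and Rfc4, with -0.56 and -0.45 in LEW and -0.94 and -0.85 in PVG, and Rfc2, which has no measured change in LEW because it was detected on none of the LEW arrays. Their limma adjusted p ran from 0.555 to 0.604. The interaction of LPS and time was also called for 0 genes by limma and for 0% of all probes, and 1 gene, Lig1, had an unadjusted p under 0.05. Neither interaction was called for a gene in the fit without moderation.

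Between the strains, more replication genes were higher in PVG than in LEW. With the 24 h and 48 h arrays as plain replicates, 1 of 37 genes was higher in PVG, Rfc2, where 6.79% of all probes were higher. That fit counts the change from 24 h to 48 h as spread, so small strain differences could hardly pass in it. Rfc2 passed the filter through the PVG arrays alone, the group in which it was higher, and 0 of the 23 genes detected on all 8 arrays passed by limma, with 1 at an unadjusted p under 0.05. In the block fit, in which arrays are compared within a time point, 10 genes were higher in PVG and 1, Ung, was lower, where 11.0% of all probes were higher and 10.6% lower. The 10 were Rrm2, Rfc2, Mcm6, Pold2, Lig1, Cdc6, Orc1, Mcm3, Gmnn and Ccne2. Cdc6, detected on 1 LEW and 3 PVG arrays, also passed the filter through the PVG arrays. The median log2 difference, PVG minus LEW, was 0.16 for the 37 genes and -0.01 for all probes. With 1 array left out and no block, the median of the genes ran from -0.01 to 0.33. Of the 38 genes with a probe, 18 were higher in PVG in all 4 matched pairs of arrays and 1 lower, where 18.8% of all probes tested were higher in all 4. Of the 18, 12 were among the 23 detected on all 8 arrays. The count of calls in the block fit fell from 11 to 5 without either PVG LPS array. It fell to 6 without the LEW control array at 24 h or either PVG control array, and to 7 without the LEW control array at 48 h. A shift to PVG was also seen outside the replication genes. Of 27 tested mitosis genes, 13 were higher and 0 lower in PVG in the block fit, with a median log2 difference of 0.35. The difference between these genes and the replication genes was not tested.

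Rfc2, a clamp loader subunit, was detected on all 4 PVG arrays, with signals of 145 in control and 139 in LPS at 24 h and of 97.4 and 91.7 at 48 h. It was detected on none of the 4 LEW arrays, with signals of 73.5, 71.5, 68.1 and 62.3. PVG and LEW did not overlap, but a gene that enters the fit through 1 strain only had to differ in that direction. Rfc2 was at least 1.38-fold higher in PVG (geometric means 116 and 68.7, limma adjusted p = 0.0151, and 0.00031 with the block), and the plain call was lost without the PVG control array at 24 h or the LEW control array at 48 h, with adjusted p up to 0.0713.

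The Rrm2 signals given above were 1.87-fold higher in PVG (log2 difference 0.90 ± 0.11, limma adjusted p = 0.000104 in the block fit). The difference was between 0.65 and 1.17 in the 4 matched pairs. Mcm6 was 1.73-fold higher in PVG (log2 difference 0.79 ± 0.13, limma adjusted p = 0.00092 with the block), from 0.47 between the LPS arrays at 24 h to 1.22 between those at 48 h. Pold2 and Lig1 were 1.46-fold and 1.43-fold higher (limma adjusted p = 0.00289 and 0.00492 with the block). These 4 calls and that of Rfc2 held when any 1 array was left out, and the other 6 of the 11 were each lost in 6 to 8 of the 8 fits that leave out 1 array. Ung had signals of 164 and 174 in LEW and of 135 and 141 in PVG at 24 h, and of 164 and 143 in LEW and of 115 and 141 in PVG at 48 h. PVG was lower in each pair, barely so between the LPS arrays at 48 h, at -0.28 ± 0.09 (limma adjusted p = 0.0438 with the block).

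At single time points, 4 genes were higher in PVG at 24 h (Mcm6, Pcna, Rfc2 and Rrm2, where 5.25% of all probes were higher) and 5 at 48 h (Mcm6, Pold2, Rfc2, Lig1 and Rrm2, where 7.21% were). The count at 24 h was 1 without the LEW control or the PVG LPS array of that time and 9 without either LEW array at 48 h. The count at 48 h was 2 without either PVG array of that time.

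**Figure D4:**
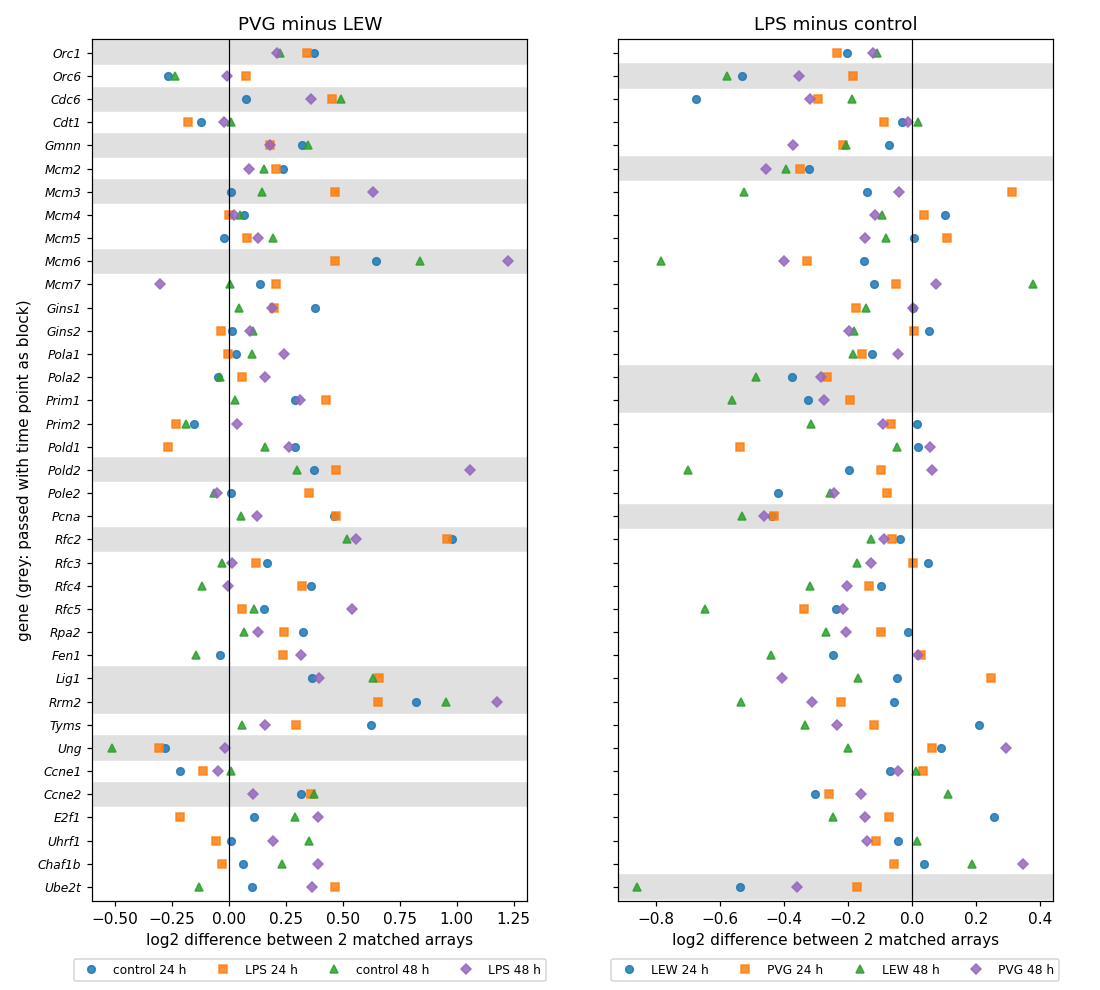
Log2 differences between matched arrays for the 37 genes tested, PVG minus LEW on the left and LPS minus control on the right, with 1 point for each of the 4 matched pairs and grey rows for genes that passed in the block fit. Grey rows on the left are 10 genes higher and 1 lower in PVG, and on the right 6 genes lower with LPS.

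Fewer replication genes passed for LPS than for time or strain. With plain replicates 0 of 37 genes passed for LPS by limma, and 0 had an unadjusted p under 0.05, where 0.759% of all probes were lower with LPS. That fit counts the change from 24 h to 48 h as spread, so small LPS differences could hardly pass in it. In the block fit 6 genes were lower with LPS, Ube2t, Orc6, Pcna, Mcm2, Pola2 and Prim1, and 0 were higher, where 2.81% of all probes were lower. There 13 of the 37 genes had an unadjusted limma p under 0.05. The median log2 difference, LPS minus control, was -0.13 for the 37 genes and 0.00 for all probes. With 1 array left out and no block, the median of the genes ran from -0.30 to 0.01. Of the 38 genes with a probe, 17 were lower with LPS in all 4 matched pairs and 0 higher, where 13.8% of all probes were lower in all 4. Of 27 tested mitosis genes, 4 were lower and 0 higher with LPS in the block fit, with a median log2 difference of -0.21.

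Pcna was 1.38-fold lower with LPS (log2 difference -0.46 ± 0.10, limma adjusted p = 0.017 with the block), and the 4 matched pairs lay between -0.53 and -0.43. Ube2t was 1.40-fold lower (log2 difference -0.48 ± 0.09, limma adjusted p = 0.00941 with the block), from -0.86 in LEW at 48 h to -0.17 in PVG at 24 h. The -0.86 was read from an LPS array on which Ube2t was not detected. Orc6 had signals of 397 in control and 275 with LPS in LEW at 24 h, of 329 and 290 in PVG at 24 h, of 259 and 173 in LEW at 48 h and of 220 and 172 in PVG at 48 h. LPS was the lower array of every pair. Orc6 was 1.33-fold lower with LPS (limma adjusted p = 0.0116 with the block). Mcm2, Pola2 and Prim1 were 1.30-fold, 1.28-fold and 1.26-fold lower (limma adjusted p = 0.0188, 0.025 and 0.0469 with the block). Each of the 6 calls was lost in at least 3 of the 8 fits that leave out 1 array. The count was 0 without the PVG control or the PVG LPS array at 48 h, 1 without the PVG control array at 24 h or the LEW control array at 48 h, 3 without the PVG LPS array at 24 h and 10 without the LEW LPS array at 24 h.

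Within LEW the block fit called 2 genes lower with LPS, Orc6 and Ube2t (1.39% of all probes), and within PVG 0 by limma, with 6 genes at an unadjusted p under 0.05. The LEW count was 0 without either LEW array at 48 h, 1 without the LEW control array at 24 h and 6 without the LEW LPS array at 24 h. The LPS response was called different between the strains for 0 of 37 genes by limma and for 0.0288% of all probes, and 0 genes had an unadjusted p under 0.05, or 3 with the block.

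The remaining genes of the replication pathway were read from lists drawn up for this comparison, over the same change from 24 h to 48 h. Of 16 tested further replication proteins 5 fell, with a median log2 difference of -0.22: the polymerase epsilon catalytic subunit Pole by 0.68, Donson by 0.57, the GINS subunit Gins4 by 0.42, the RNase H2 subunit Rnaseh2b by 0.39 and the activator of the CDC7 kinase, Dbf4, by 0.38 (the highest limma adjusted p was 0.0435). Of 11 tested genes of replication chromatin and the fork checkpoint 5 fell, the histone chaperones Asf1b by 0.93 and Nasp by 0.59, the maintenance methyltransferase Dnmt1 by 0.73, Timeless by 0.72 and the exonuclease Exo1 by 0.54. Of 8 further nucleotide synthesis enzymes 1 fell, the thymidylate kinase Dtymk, by 0.39.

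Of 14 tested cyclins, kinases and genes of the E2F and RB families 5 fell, with a median of -0.22. The kinase Cdk1 fell by 1.60, its partner cyclin A2 (Ccna2) by 1.41, cyclin D1 (Ccnd1) by 0.73, the CDK subunit Cks1b by 0.61 and the factor Mybl2 by 0.37. Of the 3 cyclin-dependent kinase inhibitors tested 0 passed by limma, and 1, Cdkn1c, had a difference of 0.36 ± 0.12 with an adjusted p of 0.133. Of 27 tested mitosis genes 25 fell, with a median of -1.05 (the kinesins Kif11 and Kif23 by 1.32 and 1.13, the CDK subunit Cks2 by 1.58 and the ubiquitin-conjugating enzyme Ube2c by 1.29 among them), against 25 of 37 and a median of -0.57 for the replication genes. The difference between the lists was not tested. The 11 reference genes had a median of -0.02 and 0 passed by limma.

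**Figure D5:**
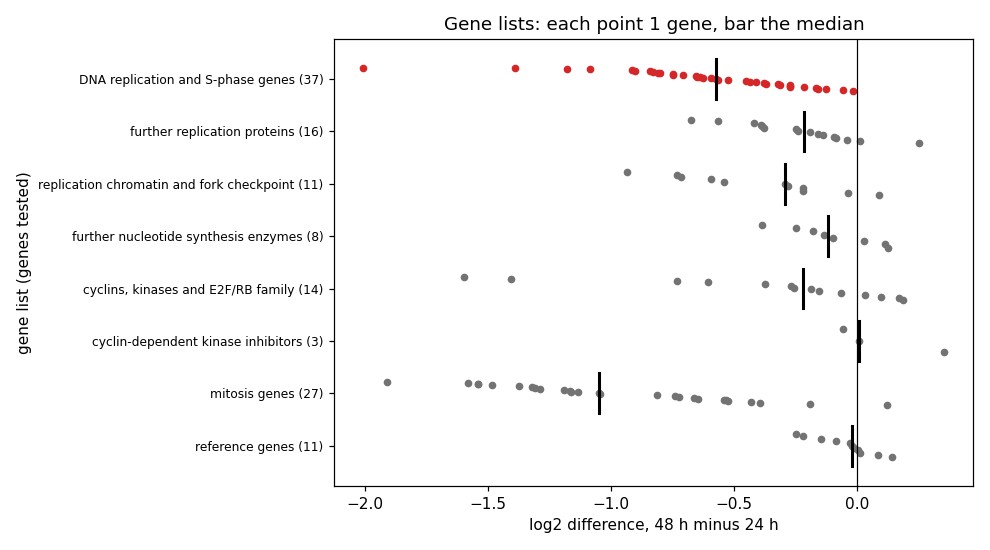
Log2 difference, 48 h minus 24 h, of each tested gene (points) in 8 gene lists, with the median as a bar and the number of genes in brackets. The median is -0.57 for the DNA replication and S-phase genes (red), -1.05 for mitosis genes and -0.02 for reference genes.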

How the data were processed

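Total RNA was measured on 8 arrays. The authors deposited signal intensities per probe (bead summaries on a linear scale, without background subtraction or normalization between arrays). Each signal comes with a deposited detection p-value from comparison with negative control beads. Another deposited table, of quantile-normalized intensities, served as an alternative. Intensities were scaled to a common 75th percentile, the scaling the methods name, floored at 16, which changed 0 values, and taken to log2. Probes with a detection p under 0.05 on at least 2 of 8 arrays were kept.

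Models over all kept probes were fitted with limma 3.58.1 in R 4.3.3. Strain and LPS used 4 group means, and time, strain by time and LPS by time had terms of their own. A Benjamini-Hochberg adjusted p under 0.05 passed. Arrays of 1 time share the time point, and all conditions of a strain came from the same rats. In 6 pairs of arrays at the same time point the deviations from the group means correlated at 0.213 to 0.451, so the fit with the time point as block is printed where it changes a call. Where the dimmer group was undetected on every array, a fold is a lower bound, set against the higher of the lowest detected signal and the probe's own signal on each array.

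The members and lists were chosen with earlier results of these data known. All 43 genes are accounted for. The genes given with every signal are, in each role group, those that pass a test, up to 4 with the smallest adjusted p, and genes of other lists are those that pass, up to 4 to a list, with the others of a small count also named. The genes named for strain, LPS and unadjusted p, and the fifth of a list, were picked with their values in view. The procedure was tested on simulated data. Alternatives were neqc (offset 16), quantile normalization, the second table, other detection filters, an intensity trend, no moderation, the mean of probes, the block, and each array left out, with the remaining array of its group assumed to vary like the others. Summaries were made in Python 3.11.15 (pandas 2.3.3, numpy 2.4.6) and plots in matplotlib 3.10.9. The number of arrays limits the precision.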

Additional observations from a re-analysis of the deposited data

How the results depend on the processing

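The fall of 25 genes from 24 h to 48 h gave 19 to 27 calls under other background corrections, scalings and detection filters, and 18 to 25 in the fits that leave out 1 array. The 25 genes all remained under neqc, quantile normalization, the second table, the intensity trend, the mean of probes and no detection filter, and 18 remained in every fit that leaves out 1 array. Without moderation of the variances limma gave 0 calls over the genes, with 29 at an unadjusted p under 0.05, and 3 over all probes. The fit without the replicate block gave 25 calls, of which 24 were shared. No direction reversed under any alternative for a called gene.

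For strain, the time point as replicate block raised the calls from 1 to 11, and they were 0 on probes detected on all 8 arrays, 0 without moderation and 0 to 3 when 1 array was left out (0 without the PVG control array at 24 h or the LEW control array at 48 h, 3 without the LEW LPS array at 24 h). With the block, they were 0 without moderation, 6 on probes detected on all 8 arrays and 5 to 10 when 1 array was left out. In control and in LPS-treated ASCs the block raised the calls from 0 to 3 and from 0 to 6, and the latter without the block were 0 to 1 when 1 array was left out, with 1 without the LEW LPS array at 24 h. With the block, leaving out 1 array gave 1 to 5 calls in control ASCs (1 without the LEW control array at 24 h or the PVG control array at 48 h, 2 without the PVG control array at 24 h, 5 without either LEW LPS array) and 2 to 7 in LPS-treated ASCs (2 without the LEW LPS array at 48 h, 3 without either PVG LPS array). For LPS, the block raised the calls from 0 to 6, and in LEW from 0 to 2 (0 to 6 when 1 array was left out). With the block they were 0 without moderation and 0 to 10 when 1 array was left out. Other processing also cost calls of the block fit. For LPS, Mcm2 and Prim1 were lost under neqc. Prim1 was lost under quantile normalization and on probes detected on all 8 arrays as well. For strain, Gmnn and Mcm3 were lost under neqc and under quantile normalization, and Ccne2 under quantile normalization. The combinations with the block, and a filter on detection on both arrays of a group, were chosen after seeing the data. Without the block, the change from 24 h to 48 h counts as spread, and with it arrays are compared within a time point. A plain fit with 1 array dropped also mixes part of that change into the strain and LPS differences. The median strain difference of the 37 genes in the plain fit was 0.16 on the log2 scale. It was 0.30 without the LEW LPS array at 24 h and 0.02 without the PVG control array at 24 h. Apart from this and fewer probes or arrays, the cause of the shifts in calls was not tested. Genes with signals close to background, such as Cdt1, Ccne1 and Uhrf1, or not far above it, such as Mcm4 and Mcm5, limit what can be seen of smaller differences.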
